A study of Mus musculus with 3 samples.

Results

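Border-associated macrophages of the mouse hippocampus were chosen by detection of at least 3 of the 6 genes Mrc1, Pf4, F13a1, Cbr2, Lyve1 and Cd163, which 153 of 19791 filtered cells met. A gene was detected when the cell held at least 1 UMI of it (a unique molecular identifier, which stands for 1 captured RNA molecule). The filter kept barcodes with 1000 or more UMIs, 500 or more genes and no more than 10% of UMIs from mitochondrial genes. The 153 cells are called macrophage-marker cells here, and the remaining 19638 cells are called other cells. Since the cells were chosen by UMIs of the 6 genes, and later divided by UMIs of P2ry12, values of those genes are a description in the comparisons they define and were not tested there.

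The study sequenced RNA of single tdTomato-positive cells from both hippocampi of mice, in 3 droplet runs with 10x Genomics reagents. All mice had the genotype Cx3cr1CreERT2/+; Rosa26tdTomato/+; NestinTK-eGFP/+ and received tamoxifen at 100 mg/kg on 4 days, which induces the reporter in cells that express Cx3cr1. The series holds 12 mice, 6 male and 6 female, which the labels do not assign to runs, and their age is not given in the sources used here. There was 1 group and no untreated, wild-type or other-tissue sample, so each comparison is between cells of the same run, with n = 3 runs. A p-value here sets a difference against the spread between runs, which may be technical. In the comparisons with other cells, the fit blocked by run took that spread wholly from values shared across genes. A very small p-value there does not measure how that gene itself varied over the runs. The sort was by the reporter, and the Cre driver limits which macrophages could enter it.

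Border-associated macrophages are the resident macrophages of the meninges, the perivascular spaces and the choroid plexus. Many of them share the yolk-sac ancestry of microglia, which lie in the parenchyma, and they express the same growth factor receptor, Csf1r. But they express scavenger and lectin receptors such as Mrc1 and Cd163 and little of the microglial genes P2ry12, Tmem119 and Sall1. They take up material from fluid and blood, and part of them present antigen on MHC class II.

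Macrophage-marker cells numbered 78 of 6993 cells in run 1, 27 of 6720 in run 2 and 48 of 6078 in run 3. The shares were 1.12% (exact 95% binomial interval 0.883 to 1.39%), 0.402% (0.265 to 0.584%) and 0.79% (0.583 to 1.05%). Their mean was 0.769% ± 0.357 (SD, n = 3). The intervals, which cover counting error only, did not overlap between runs 1 and 2. Shares of sorted cells depend on the dissection and the sort as well as on the tissue. Runs shared 7, 10 and 9 cell barcodes in pairs, and 1 of these was that of a macrophage-marker cell, in runs 2 and 3.

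Mrc1, the mannose receptor, had UMIs in 152 of the 153 cells, and Pf4, a platelet-type chemokine, in all 153. F13a1, a transglutaminase subunit, was detected in 131, Cd163, the receptor for haptoglobin-bound hemoglobin, in 116, Cbr2, a carbonyl reductase, in 110 and Lyve1, a hyaluronan receptor, in 80. All 6 genes were detected in 51 cells, 5 in 49, 4 in 32 and 3 in 21. Levels are given below as CPM, the UMIs of a gene per 1000000 UMIs of the population in that run. Pf4 stood at 1767, 2999 and 3828 CPM in runs 1, 2 and 3, against 2.54, 2.29 and 3.15 CPM in other cells. Lyve1 stood at 386, 402 and 676 CPM, against 0.122, 0.0409 and 0 CPM. Among other cells, UMIs were found in 1.45% of cells for Mrc1, 0.509% for Pf4 and 0.0255% for Lyve1. At the edge of the rule, the 33 cells with 2 genes detected had a median of 714 CPM for the sum of the 6 genes and the 21 cells with 3 had 1676 CPM. P2ry12 was absent from 45.5% of the former and 42.9% of the latter over all runs, from 18.2% and 35.7% in run 1. It was absent from 0.604% of the cells with none of the 6 genes, 5.18% of those with 1 and 27.5% of those with all 6.

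Promoter sequence is shown for Mrc1 and Pf4, the genes found in nearly all of these cells, to set beside their joint detection. The 250 bases before the RefSeq start were searched for GAGGAA on either strand, the core bound by Spi1 (PU.1), a transcription factor of all macrophages. The 5 rule genes with an entry have 6 such windows, since F13a1 has 2, and 4 of the 6 windows held it (Mrc1, Pf4, Cbr2 and the first of F13a1). Of all 32851 windows of the same length, 23.3% held it. A match describes the letters only. Capitals mark the match, which on the printed strand reads TTCCTC, and both windows are from RefSeq on GRCm38.p6, plus strand. The Mrc1 window is chr2:14229164-14229413, with matches that begin 180, 167 and 35 bases before the start, and the Pf4 window is chr5:90772185-90772434, with a match 8 bases before it.
Mrc1: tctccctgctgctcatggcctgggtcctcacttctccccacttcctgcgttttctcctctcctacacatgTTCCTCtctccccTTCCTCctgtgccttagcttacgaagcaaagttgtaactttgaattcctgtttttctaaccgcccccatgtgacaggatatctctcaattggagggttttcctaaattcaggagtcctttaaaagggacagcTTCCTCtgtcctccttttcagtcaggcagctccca
Pf4: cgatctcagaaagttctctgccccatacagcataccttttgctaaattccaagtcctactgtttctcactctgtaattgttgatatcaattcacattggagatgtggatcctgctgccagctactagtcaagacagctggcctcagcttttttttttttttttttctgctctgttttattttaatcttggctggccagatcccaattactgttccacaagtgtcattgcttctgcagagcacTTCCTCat

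Spi1 itself stood at 402, 667 and 429 CPM in macrophage-marker cells and at 441, 601 and 436 CPM in other cells. Its log2 difference was 0.04 ± 0.21 (SE, adjusted p = 0.962), and the levels of the populations overlapped over the runs.

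P2ry12, a purine receptor that marks parenchymal microglia, divided the cells into 54 without and 99 with at least 1 UMI. Those without it numbered 21, 13 and 20 in runs 1, 2 and 3, which is 26.9%, 48.1% and 41.7% of the macrophage-marker cells of each run. Of the 99 others, 42 had 1 to 3 P2ry12 UMIs, 3 had 4 to 7 and 54 had at least 8. Other cells had at least 8 in 86.1% and none in 0.769%. Run 1 held 47 of the 54 macrophage-marker cells with at least 8 P2ry12 UMIs, against 4 in run 2 and 3 in run 3.

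The cells with at least 8 P2ry12 UMIs also differed in depth and in sex-linked transcripts. Their median was 9636 UMIs per cell, against 3998 in the cells without P2ry12 and 4378 in those with 1 to 3 UMIs. Xist and Y-linked transcripts, which a single cell of 1 animal should not hold together, were both found in 28 of the 54 (51.9%, exact 95% binomial interval 37.8 to 65.7%). These were 26 of 47 cells in run 1, 1 of 4 in run 2 and 1 of 3 in run 3. The interval pools the runs and covers counting error only. In the cells without P2ry12 both kinds of transcript were found together in 1 of 54 (1.85%, 0.0469 to 9.89%), in those with 1 to 3 UMIs in 1 of 42, and in other cells in 2.51%. Microglial markers were summed without P2ry12 (Tmem119, Sall1, Siglech, Olfml3, Gpr34, Fcrls and Sparc). Their sum had a median of 9971 CPM in the cells with at least 8 P2ry12 UMIs and 2525 CPM in the cells without P2ry12. The sum of the 6 rule genes had medians of 2996 and 7194 CPM. Droplets with more than 1 cell were not called, and their part in these values was not tested. Run 1 therefore stands apart: its 78 cells had a median of 8063 UMIs, against 4414 in its other cells, while medians were 3412 and 3438 UMIs in run 2 and 4324 and 3689 in run 3. With at most 3 P2ry12 UMIs, 31, 22 and 43 cells remained in runs 1, 2 and 3, with a mean share of 0.493% ± 0.195 (SD, n = 3). Counts for each gene list are therefore given for all 153 cells and for the 54 without P2ry12, and both are set against the same other cells.

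**Figure D1:**
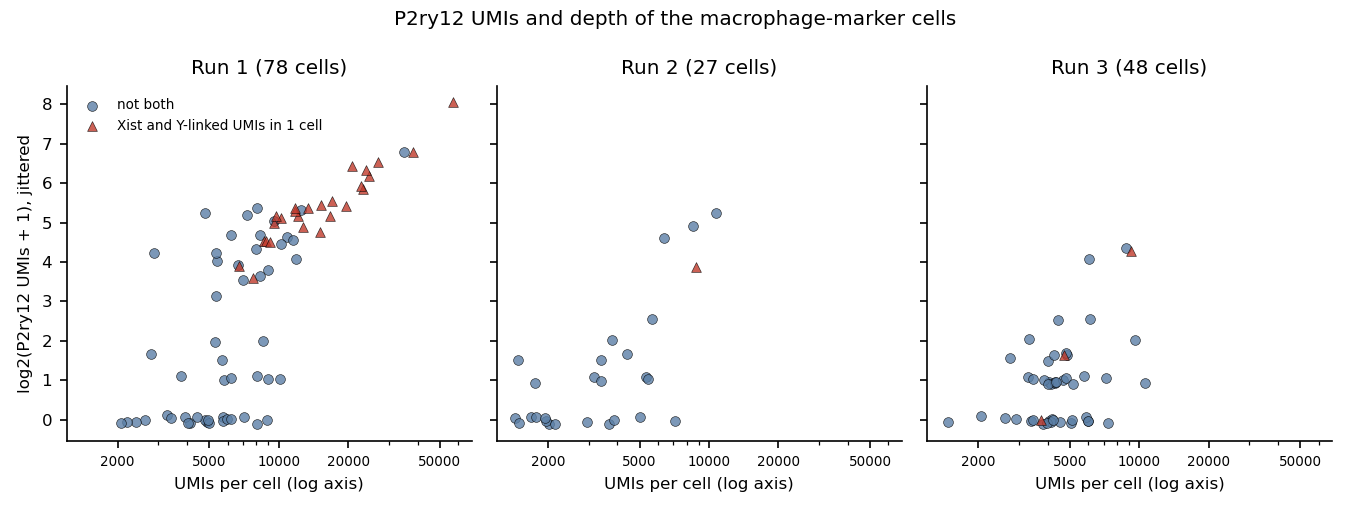
P2ry12 UMIs per macrophage-marker cell (vertical axis, log2 of the UMIs plus 1, with small random shifts) against all UMIs of the cell (horizontal log axis), in a panel per run. Triangles are cells in which Xist and a Y-linked gene were found together, 26 in run 1, 1 in run 2 and 3 in run 3, and those of run 1 lie at high depth and high P2ry12.

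Markers of other cell types were read in the same sums. The B cell list, from Cd79b and Ighm, summed to 286, 311 and 208 CPM in runs 1, 2 and 3. In other cells it summed to 302, 393 and 319 CPM. Astrocyte markers summed to 256, 54.9 and 73.6 CPM against 364, 230.1 and 242 CPM. Oligodendrocyte markers summed to 105, 119 and 56.3 CPM against 104, 124 and 95.1 CPM. Neuron markers had 15 UMIs, at 13.6, 36.6 and 0 CPM against 9.87, 5.36 and 3.57 CPM. The dendritic cell list, which includes Siglech, summed to 1167, 494 and 355 CPM against 1766, 1518 and 1769 CPM in other cells. Its Cd209a was called higher and found in 23 of the 153 cells, with 28.4% of its UMIs in 1 cell. The mural cell or fibroblast list had 5 UMIs, at 4.93, 0 and 4.33 CPM against 0.305, 0.0409 and 0.168 CPM. No UMI of the 7 T or NK cell markers, the 4 mast cell markers or the 5 red blood cell genes was found in the 153 cells. Of the 7 monocyte markers, Ly6c2, Plac8, Chil3, Vcan and Hp were at 0, and the sum, from Ccr2 and a single Fn1 UMI, lay between 9.14 and 139 CPM over the runs against 8.1 to 22.5 CPM in other cells. Of 6 neutrophil markers, S100a8, S100a9, Retnlg and Cxcr2 were at 0. The list summed to 174, 82.3 and 56.3 CPM in runs 1, 2 and 3, against 203, 169.6 and 177 CPM in other cells, from Csf3r, a cytokine receptor found in 56 of the 153 cells, and Mmp9, a protease found in 7 of them and in none of the other cells. Of 6 endothelial markers Pecam1 alone had UMIs, and only in run 1, at 18.5 CPM. The endothelial list summed to 35.2, 34.7 and 33.2 CPM in other cells. The choroid plexus list summed to 459.6 CPM in run 1, 27.4 in run 2 and 8.66 in run 3, and 246 of the Ttr UMIs came from 1 cell. In other cells this list was higher in each run, at 479.6, 921 and 105 CPM.

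Across 12036 genes, 1208 (10.0%) differed between macrophage-marker cells and other cells at an adjusted p under 0.05, by edgeR's quasi-likelihood test, blocked by run and adjusted by Benjamini-Hochberg. Of these, 723 were higher (6.01% of genes tested) and 485 lower (4.03%), and the median log2 difference over all genes was -0.12. The test reads genes outside the rule in the same cells, so a call states that a gene moved with detection of the 6. Run 3 decided the count most, with 474 genes called without it, 773 without run 2 and 1198 without run 1. Without the block 661 genes were called, and with only the cells of at most 3 P2ry12 UMIs 1832, a choice made after the values were seen. For the 54 cells without P2ry12, 1324 of 11705 genes (11.3%) differed from other cells, 545 higher (4.66%) and 779 lower (6.66%), and 610, 737 and 645 were called without runs 1, 2 and 3. Their median over all genes was -0.58, and -0.44 with DESeq2's size factors, so small negative differences of these cells sit near the shift of all genes.

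Macrophage genes that the rule did not use were higher together. This list and those below were chosen with earlier results of these data known, so their counts of calls are a description and not independent support. All 20 genes of this list were called higher, in the 153 cells (median log2 difference 5.82, against 6.01% of all genes called higher) and in the 54 without P2ry12 (6.09, against 4.66%). Ms4a7, a tetraspan-like membrane protein, had UMIs in 149 of the 153 cells and in 0.3% of other cells. With each cell thinned to 2000 UMIs, it was found in 76.4% of 144 macrophage-marker cells and in 0.195% of 19001 other cells, where 9 and 637 shallower cells were left out. Its level was 727, 1472 and 1104 CPM in runs 1, 2 and 3 against 1.53, 8.23 and 4.78 CPM, a log2 difference of 8.09 ± 0.27 (SE, adjusted p = 1.72e-192). The runs did not overlap, and the cells without P2ry12 stood at 1425, 1401 and 989 CPM.

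Folr2, a folate receptor of resident tissue macrophages, stood at 134, 411 and 303 CPM against 0.428, 0.328 and 0.461 CPM (log2 difference 9.28 ± 0.30). Pla2g2d, a secreted phospholipase, stood at 78.9, 64 and 134 CPM against 0.153, 0.328 and 0 CPM. Timd4, a phosphatidylserine receptor of long-lived macrophages, stood at 20.9, 36.6 and 69.3 CPM against 0.0305, 0.0819 and 0.21 CPM. All 3 were higher in every run. Siglec1, a sialic acid receptor, stood at 44.4, 73.1 and 104 CPM against 0.733, 0.778 and 1.26 CPM, and in the cells without P2ry12 at 100.4, 108 and 119 CPM. Stab1, a scavenger receptor, was also well expressed in other cells, at 289, 215 and 232 CPM, and was higher at 1212, 1591 and 2109 CPM (log2 difference 2.76 ± 0.21, adjusted p = 1.35e-35).

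**Figure D2:**
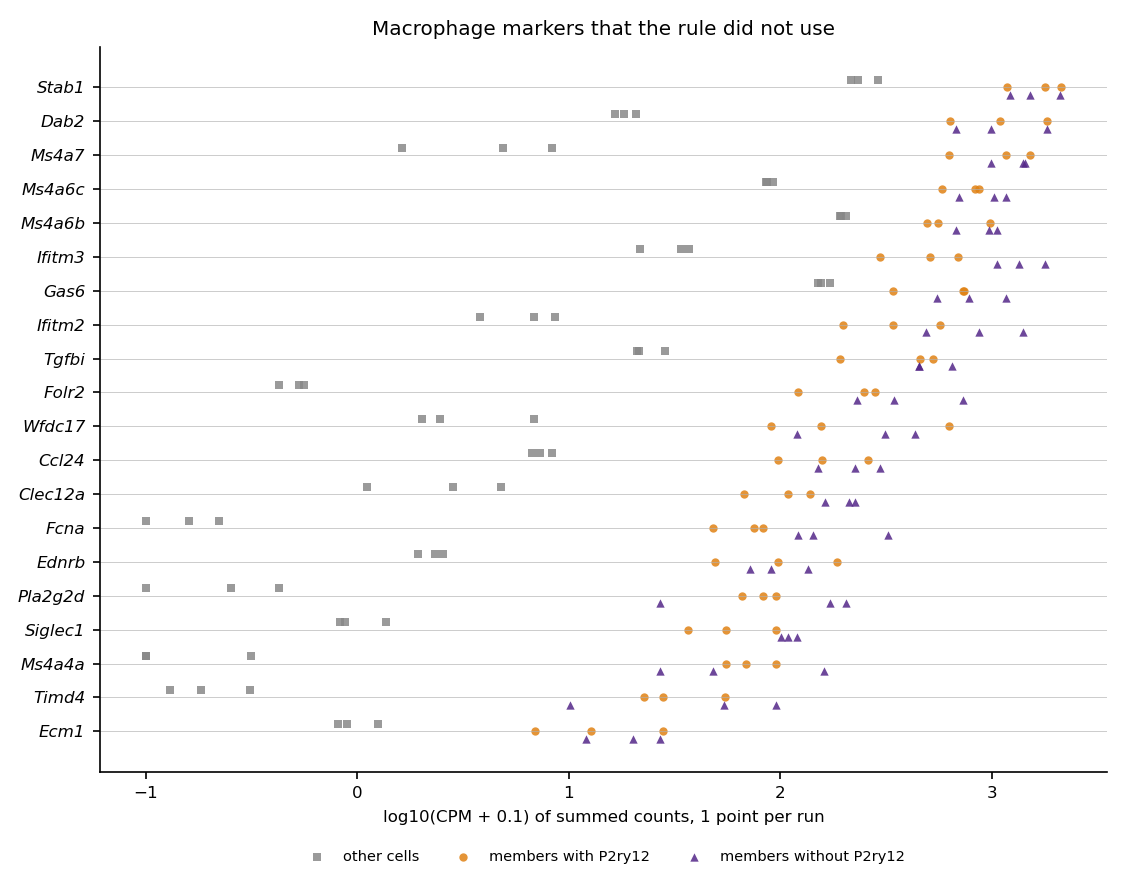
Level of 20 macrophage genes outside the rule (horizontal axis, log10 of CPM plus 0.1) in other cells (squares), macrophage-marker cells with P2ry12 (circles) and without P2ry12 (triangles), 1 point per run. Other cells lie to the left of both other groups for each gene.

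Microglial genes were lower. Of 20 homeostatic microglia genes, 17 were called lower and none higher in the 153 cells, with a median log2 difference of -1.59, against 4.03% of all genes called lower. In the 54 cells without P2ry12, 19 of the 19 tested genes were called lower, with a median of -3.48, against 6.66% of all genes. These cells were chosen for 0 UMIs of P2ry12, itself a gene of this list. That count therefore describes genes that moved with P2ry12 and is not independent support. Tmem119, a membrane protein of parenchymal microglia, stood at 1141, 539 and 178 CPM against 1874, 2792 and 2049 CPM in other cells (log2 difference -2.05 ± 0.23, adjusted p = 2.85e-17). Run 1 was highest, and without it the difference was -2.87. In the cells without P2ry12, Tmem119 was at 90.3, 80.8 and 23.8 CPM (-5.13 ± 0.27, adjusted p = 3.65e-76), and it was detected in 11 of these 54 cells against 98.9% of other cells.

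Sall1, a transcription factor that maintains microglial identity, stood at 238, 54.9 and 43.3 CPM against 338, 253 and 362 CPM. The 54 cells without P2ry12 held 1 Sall1 UMI, in run 1, a ratio to other cells of 0.0142 (95% counting interval 0.000359 to 0.079). Slc2a5, a fructose transporter of microglia, had no UMI in these cells and 407, 456 and 341 CPM in other cells, at least 29.6-fold lower with 3 counts over the group as the floor. Sparc, a matrix protein, fell from 2987, 4135 and 3417 CPM in other cells to 10, 26.9 and 0 CPM in the cells without P2ry12, in which it had 2 UMIs. A single UMI corresponds there to 10 CPM in run 1, 26.9 in run 2 and 11.9 in run 3.

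Not all genes used to mark microglia divided the populations. Fcrls, an Fc receptor-like gene, stood at 1976, 2423 and 1988 CPM in the 153 cells against 2264, 2732 and 2029 CPM (log2 difference -0.08 ± 0.21, adjusted p = 0.902). In the cells without P2ry12 it was 1626, 2101 and 1704 CPM, and its call as lower (-0.46, adjusted p = 0.04) was less than the median shift of all genes. Csf1r, the receptor on which macrophages and microglia depend, stood at 2903, 2724 and 2018 CPM against 3134, 3940 and 3075 CPM (adjusted p = 0.343), and at 1806, 1616 and 1835 CPM in the cells without P2ry12 (-1.0, adjusted p = 1.59e-08). Cx3cr1, the locus that drives the Cre, was lower at 2241, 869 and 957 CPM against 2850.5, 2033 and 2612 CPM (-0.94 ± 0.21, adjusted p = 0.000208). Its groups overlapped over runs, and it was detected in 121 of 153 cells.

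**Figure D3:**
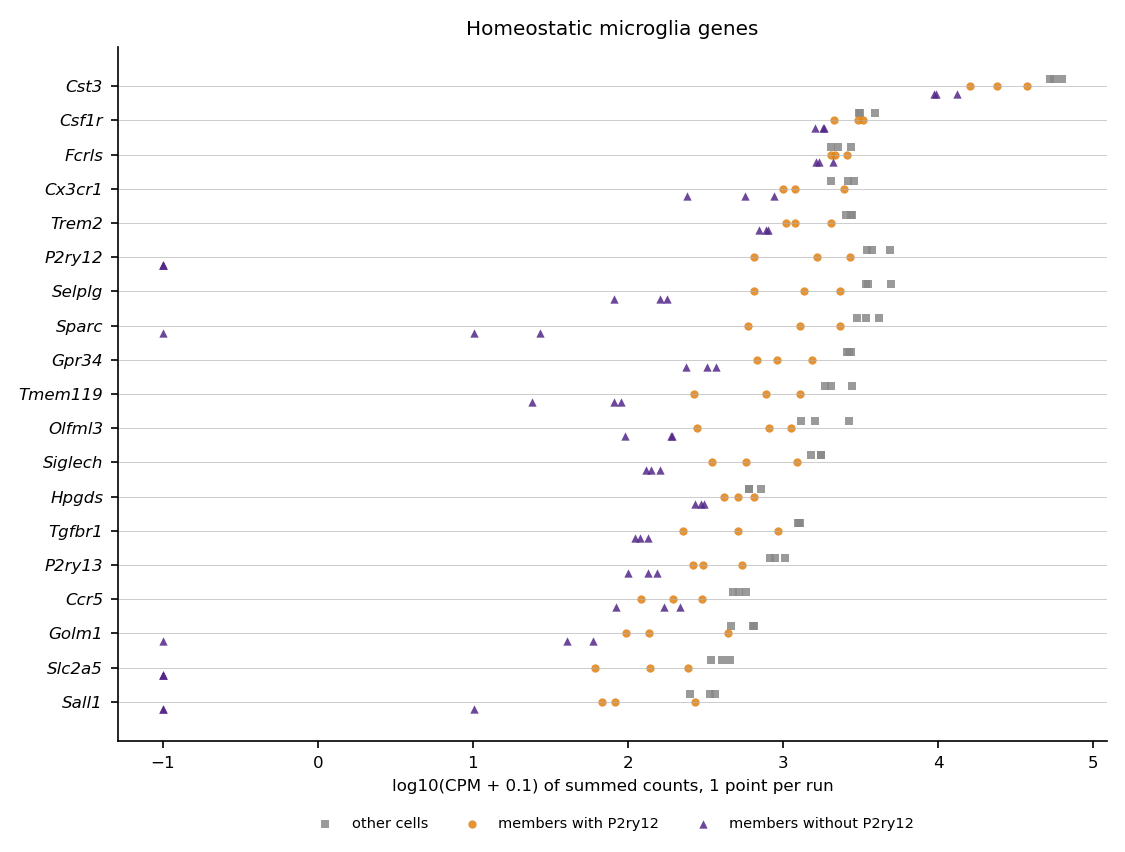
Level of 19 homeostatic microglia genes (horizontal axis, log10 of CPM plus 0.1) in the same 3 populations, 1 point per run. Cells without P2ry12 (triangles) lie furthest left for Sparc, Slc2a5 and Sall1, with values of 0 CPM drawn at -1, and the 3 populations lie close together for Fcrls. P2ry12 itself is 0 in the triangles by the rule.

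Scavenger and lectin receptors, which bind sugars, lipoproteins and debris, were mostly higher. Of 20 listed genes 17 were tested, 14 were called higher (6.01% of all genes), 1 lower and 2 not. Their median log2 difference was 5.49. Without P2ry12, 12 of 16 were called higher (4.66% of all genes) and Lrp1 and Scarb2 lower. Cd209f, a C-type lectin of the DC-SIGN family on chromosome 8 (GRCm38, 4102787 to 4105835, minus strand), stood at 413, 320 and 788 CPM against 0.122, 0 and 0.21 CPM (log2 difference 12.09 ± 0.35, adjusted p = 3.23e-253). Its relative Cd209g stood at 93.6, 174 and 229.5 CPM, with 148 UMIs against 3 in all other cells, a ratio of 3469 (1164 to 17014). Cd209b had 78 UMIs against 1 in other cells and was found mainly in the cells with P2ry12, at 53.4, 166 and 156 CPM against 20.1, 0 and 35.7 CPM in those without. That last difference did not pass the test (-2.25, adjusted p = 0.108). The Cd209 genes are close relatives, and how reads that fit several of them were counted is not given in the sources used here.

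Clec10a and Mgl2, galactose-binding lectins of macrophages and dendritic cells, were both higher. Clec10a stood at 159, 357 and 559 CPM against 0.183, 0.778 and 2.26 CPM, and Mgl2 at 156, 457 and 463 CPM against 1.96, 0.737 and 8.81 CPM. Cd36, a receptor for oxidized lipid, stood at 72.7, 54.9 and 134 CPM against 0.764, 0.655 and 0.965 CPM. Lrp1, a receptor for lipoproteins and protease complexes, was the listed gene called lower, at 265, 174 and 117 CPM against 388, 272 and 365 CPM (-0.86 ± 0.22). Cd68, a lysosomal protein of all macrophages, stood at 727, 777 and 862 CPM against 740.4, 1015 and 661 CPM (adjusted p = 0.943).

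Class II antigen presentation genes divided. Of 12 listed genes 5 were called higher (H2-Aa, H2-Ab1, H2-Eb1, Cd74 and Ciita, against 6.01% of all genes), 2 lower (H2-Oa and Ctss, against 4.03%) and 5 not, and the same counts held in the cells without P2ry12. The median log2 difference was 0.15, and its sign turned with at least 4 of the 6 genes required (-0.04) or with cells thinned to 2000 UMIs (-0.08). Cd74, the invariant chain, stood at 2935, 6893 and 4131 CPM against 104, 232 and 327 CPM (log2 difference 4.51 ± 0.24, adjusted p = 4.63e-77). H2-Aa, a class II alpha chain, stood at 1113, 2304 and 1498 CPM against 30, 62.4 and 113 CPM. Ciita, the regulator of the class II genes, was scarce at 18.5, 18.3 and 21.7 CPM against 0.336, 0.573 and 4.15 CPM, and its call was lost without run 1 (log2 difference 3.09) and in thinned cells (3.68).

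At least 3 UMIs of H2-Aa, H2-Ab1, H2-Eb1 and Cd74 together were found in 63 of 153 macrophage-marker cells (41.2%, exact 95% binomial interval 33.3 to 49.4%) and in 1.78% of other cells, while 67 macrophage-marker cells had none. The shares were 46.2%, 40.7% and 33.3% in runs 1, 2 and 3. They were 42.6% in the cells without P2ry12 (57.1%, 30.8% and 35% by run) and 40.4% in those with it (42.1%, 50% and 32.1%). Cells with and without Lyve1 differed: 14 of the 80 cells with Lyve1 (17.5%) and 49 of the 73 without it (67.1%) reached 3 class II UMIs. The shares with and without Lyve1 were 22.7% and 76.5% in run 1, 0% and 68.8% in run 2, and 16% and 52.2% in run 3. Median depths were 5250 UMIs with Lyve1 and 5635 without. With each cell thinned to 2000 UMIs and Lyve1 read again in the thinned counts, the shares over all runs were 5% of 60 cells and 54.8% of 84 cells, with 9 shallower cells left out. Since Lyve1 is a rule gene, a cell without it had to hold 3 of the other 5, and these shares are a description.

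**Figure D4:**
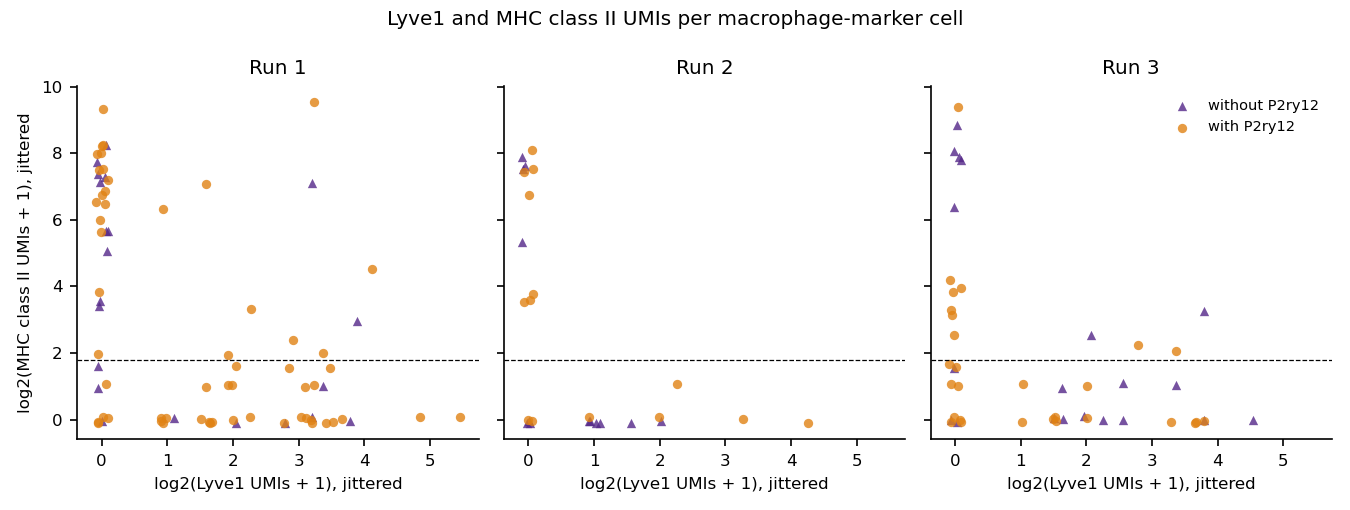
MHC class II UMIs (sum of H2-Aa, H2-Ab1, H2-Eb1 and Cd74, vertical axis) against Lyve1 UMIs (horizontal axis) in each macrophage-marker cell, both as log2 of the UMIs plus 1 with small random shifts, in a panel per run. Cells above the dashed line hold at least 3 class II UMIs, and most of them lie at 0 Lyve1 UMIs in each run.

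Iron and heme genes, which recover iron from hemoglobin, were partly higher. Of 18 listed genes 15 were tested, 6 were called higher (6.01% of all genes), none lower and 9 not. Among the 54 cells without P2ry12, 7 of 15 were called higher (4.66% of all genes) and none lower. Cp, the ferroxidase ceruloplasmin, stood at 148, 192 and 251 CPM against 0.489, 0.409 and 0.881 CPM (log2 difference 8.39 ± 0.32, adjusted p = 7.45e-149). Blvrb, a biliverdin reductase, stood at 286, 622 and 437 CPM against 78.4, 86.5 and 68.7 CPM, and Hmox1, the heme oxygenase, at 96.1, 165 and 178 CPM against 30, 42 and 24.1 CPM. The ferritin chains Ftl1 and Fth1 were higher with log2 differences of 1.67 ± 0.22 and 1.44 ± 0.22. Slc40a1, the iron exporter ferroportin, stood at 145, 109.7 and 108 CPM against 131, 109.8 and 124 CPM (adjusted p = 0.946).

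Complement genes went in different directions. Of 15 listed genes 12 were tested, 5 were called higher (C3, C4b, C3ar1, C5ar1 and Cfp), 1 lower (Itgam) and 6 not, in the 153 cells and, with the same genes, in the 54 without P2ry12. Of all genes, 6.01% and 4.66% were called higher. C4b, a component of the classical pathway, stood at 159, 247 and 160.2 CPM against 1.34, 1.51 and 1.68 CPM (log2 difference 6.96 ± 0.29, adjusted p = 1.76e-119), and Cfp, properdin, at 43.1, 109.7 and 65 CPM against 0.978, 1.97 and 2.35 CPM. C3 was called higher from 7 cells, with 43.8% of its UMIs in 1 of them, and its call was lost with thinned cells. The recognition chain C1qa was as abundant as in other cells to within the spread of runs, at 10001, 11803 and 9401 CPM against 10676, 12676 and 10013 CPM (-0.04 ± 0.22, adjusted p = 0.961). Itgam, the alpha chain of complement receptor 3, was lower at 318, 119 and 134 CPM against 436, 411 and 522 CPM, a call lost without run 3 (-0.88).

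Lipid genes were led by Apoe, the apolipoprotein of brain lipid transport. It reached 24701, 49743 and 48687 CPM against 826, 1109 and 918 CPM (log2 difference 5.43 ± 0.27, adjusted p = 6.62e-85). Run 1 was the lowest of the 153 cells, and the cells without P2ry12 stood at 55459, 58472 and 53467 CPM, about the same in the 3 runs. Of 16 listed genes 13 were tested, 6 were called higher (6.01% of all genes), 1 lower and 6 not. The counts were also 6, 1 and 6 of 13 in the cells without P2ry12, with Npc2 called higher and Fabp5 not. Of all genes, 4.66% were called higher there and 6.66% lower. Pltp, a phospholipid transfer protein, stood at 137, 411 and 217 CPM against 1.28, 3.03 and 2.22 CPM. Abcg1, a cholesterol exporter, was the gene called lower, at 51.7, 9.14 and 8.66 CPM against 96.5, 80.9 and 76.2 CPM.

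Interferon response genes were higher in the 153 cells for all 10 members, with a median log2 difference of 3.45, against 6.01% of all genes. They were also higher for all 10 in the cells without P2ry12, with a median of 4.04, against 4.66% of all genes. Bst2, an antiviral membrane protein, stood at 667, 1115 and 1031 CPM against 168, 178 and 158 CPM (log2 difference 2.49 ± 0.21, adjusted p = 2.36e-30). Oasl2, an antiviral synthetase-like gene, stood at 57.9, 165 and 139 CPM against 5.53, 5.69 and 5.58 CPM, and Irf7, a transcription factor of the response, at 57.9, 119 and 69.3 CPM against 6.26, 8.6 and 5.37 CPM. UMIs of the list were found in 150 of the 153 cells, with a median of 8 per cell. The 3 cells richest in UMIs of the list held 18.9% of these over all runs and 42% in run 3. The list summed to 1142.1, 1773.6 and 2342.8 CPM in runs 1, 2 and 3. With the list's UMIs of the 3 richest cells of each run left out, the sums were 900.6, 1252.5 and 1359.8 CPM. The total UMIs were kept unchanged in this step. Rsad2, viperin, rested on few cells, with 43.8% of its UMIs in 1 cell, and Ifit2, which had none in run 2, on 12 cells, and DESeq2's Wald test did not call Ifit2 (2.41). In the cells without P2ry12, the calls of Ifit1, Ifit2 and Rsad2 were lost without run 3 (1.45, 2.25 and 2.56).

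**Figure D5:**
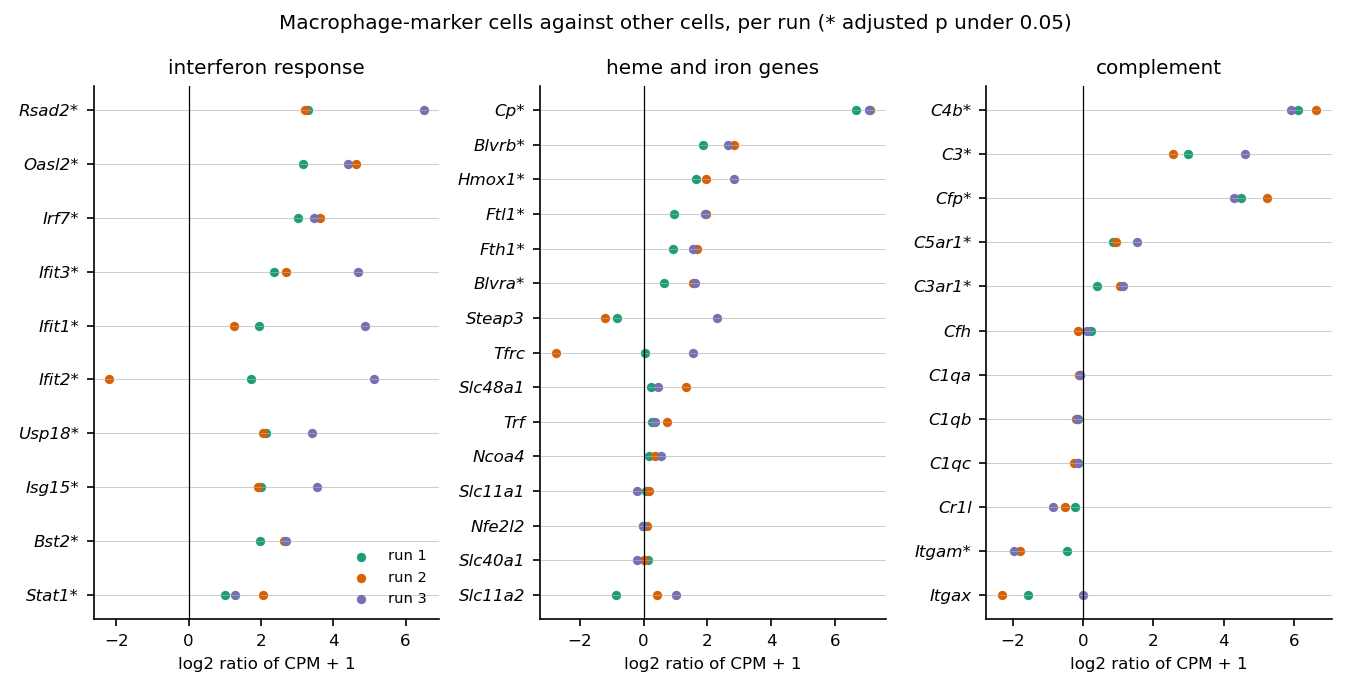
Log2 ratio of macrophage-marker cells to other cells in each run (horizontal axis, CPM plus 1) for the interferon response, heme and iron, and complement lists. Points to the right of 0 are higher in macrophage-marker cells, a star marks an adjusted p under 0.05, and Ifit2 lies left of 0 in run 2 where it had no UMI.

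Chemokine genes were called higher for 10 of 16 tested genes (6.01% of all genes) and lower for Ccl9 and Ccl25, with a median log2 difference of 1.96. For the 54 cells without P2ry12, 6 of 15 were called higher (Ccl2, Ccl7, Ccl8, Ccl12, Cxcl16 and Ccr1, against 4.66% of all genes) and Ccl9 lower, with a median of -0.185. There Ccl4, Cxcl10 and Ccr2 were not called and Cxcl2 was not tested. Ccl8, a monocyte attractant, stood at 202, 64 and 134 CPM against 0, 0.164 and 0.168 CPM (log2 difference 10.39 ± 0.42), and Ccl7 at 57.9, 183 and 113 CPM against 0.367, 3.97 and 1.13 CPM. Ccl12 stood at 416, 622 and 1429 CPM against 117, 148 and 177 CPM, and Ccr1, a receptor of such chemokines, at 112, 183 and 303 CPM against 16.4, 17.3 and 16.9 CPM. These 4 were higher in each run. Calls of the list rested to differing degrees on single cells. In all macrophage-marker cells, 1 cell held 95.2% of the UMIs of Cxcl10, 88.5% of those of Ccl4 and 55.8% of those of Ccr2. This share was 45.9% for Ccl2, 33.3% for Cxcl2, 24.3% for Ccl8 and 18.3% for Ccl7. It was 11.1% for Ccl12, 6.78% for Cxcl16 and 4.97% for Ccr1. In the cells without P2ry12 the share was 48.1% for Ccl7, 33.2% for Ccl12, 28.9% for Ccl8 and 26.7% for Ccl2. There it was 14.3% for Ccr1 and 11.1% for Cxcl16. Cxcl10 had no UMI in runs 2 and 3, so its call rested on run 1. The call of Ccr2, the monocyte chemokine receptor, was lost without run 3 (1.57) and without the block (2.7).

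Growth factors were called higher for 3 of 10 tested genes (6.01% of all genes) and lower for 1 (4.03%). Of 9 tested in the cells without P2ry12, Igf1 was called higher (4.66% of all genes) and Pdgfb and Tgfb1 lower (6.66%). Csf1 and Spp1 had no UMI there. Igf1, a neurotrophic growth factor, stood at 103, 155 and 299 CPM against 2.23, 1.47 and 1.76 CPM (log2 difference 6.53 ± 0.30, adjusted p = 2.23e-102). Bmp2, a bone morphogenetic protein, had 21 UMIs against 2 in other cells, a ratio of 738 (95% counting interval 180.5 to 6495). Csf1, a ligand of Csf1r, was called higher with 80.6% of its UMIs in 1 cell of run 3, and without that run its log2 difference was -1.21. Pdgfb, a platelet-derived growth factor, was lower at 102, 54.9 and 69.3 CPM against 165, 194 and 208 CPM.

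Adhesion genes divided, with 5 of 18 called higher (Itga4, Vcam1, Nrp1, Lgals1 and Cd63), 8 lower and 5 not, with the same genes called in the cells without P2ry12. Of all genes 6.01% and 4.66% were called higher, and 4.03% and 6.66% lower. Vcam1, a ligand of lymphocyte integrins, stood at 281, 155 and 411 CPM against 2.96, 2.87 and 2.43 CPM (log2 difference 6.72 ± 0.27, adjusted p = 2.51e-135). Its receptor chain Itga4 stood at 45.6, 36.6 and 69.3 CPM against 1.37, 0.983 and 1.97 CPM, and Lgals1, a galectin, at 165, 357 and 368 CPM against 5.35, 9.38 and 12.5 CPM. The tetraspanin Cd9 was lower at 670.2, 192 and 217 CPM against 1446, 1592 and 1486 CPM, and so was F11r, a junction molecule, at 349.9, 229 and 108 CPM against 681, 949.8 and 807 CPM.

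Receptors for apoptotic cells moved apart. Axl was higher at 60.4, 101 and 69.3 CPM against 5.65, 4.91 and 5.7 CPM (log2 difference 3.75 ± 0.37, adjusted p = 2.41e-22), while Mertk, a kinase of the same family, was lower at 467, 137 and 139 CPM against 507, 351 and 512 CPM (-0.93 ± 0.22, adjusted p = 0.000776). The call of Mertk in the 153 cells was lost without run 2 (-0.79), without run 3 (-0.52), without the block (-0.71) and by DESeq2's Wald test (-0.95), and its groups overlapped over runs. In the cells without P2ry12, Mertk stood at 80.3, 26.9 and 71.5 CPM (-2.88 ± 0.32, adjusted p = 4.37e-17). Over the list, 2 of 10 tested genes were called higher (Axl and Adgre1, against 6.01% of all genes). Called lower were 4 (Mertk, Pros1, Havcr2 and Elmo1, against 4.03% of all genes). Cd300a and Dock2 were also called lower in the cells without P2ry12, against 6.66% of all genes. Havcr2, a phosphatidylserine receptor, had no UMI in the cells without P2ry12 against 167, 164 and 193 CPM in other cells, at least 12.8-fold lower.

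Of 22 myeloid transcription factors 5 were called higher (Maf, Cebpb, Klf2, Klf4 and Tfec), 5 lower (among them Sall3, Mef2a, Id2 and Bhlhe41) and 12 not. The same 5 were called higher in the cells without P2ry12, and 7 lower, with Irf8 and Mef2c added. Of all genes 6.01% and 4.66% were called higher, and 4.03% and 6.66% lower. Maf, a factor of macrophage identity, stood at 1811, 1106 and 2395 CPM against 992, 625 and 1059.8 CPM (log2 difference 1.01 ± 0.21, adjusted p = 2.39e-05). Tfec, a factor of macrophages related to Mitf, stood at 12.3, 18.3 and 26 CPM against 0.672, 0.287 and 0.377 CPM. Bhlhe41, a repressor expressed in microglia, was lower at 87.5, 45.7 and 34.6 CPM against 163, 197 and 174 CPM.

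Fc receptors were called for 1 of 5 genes, the inhibitory receptor Fcgr2b, at 525, 658 and 649.6 CPM against 206, 218 and 186 CPM, and in the cells without P2ry12 for Fcer1g as well (6.01% and 4.66% of all genes were called higher). None of 12 cell cycle genes was called in the 153 cells and Tubb5, a tubulin, was called lower in the cells without P2ry12, and Mki67, a marker of cycling cells, had 1 UMI in the 153 cells. Of 10 immediate early genes 4 were called higher (Fos, Fosb, Ier2 and Dusp1, against 6.01% of all genes) and Junb lower (4.03%). Fosb had UMIs in only 5 of the 153 cells, all of run 3, and 1 cell held 24.1% of the UMIs of Ier2. Fos and Dusp1 were called higher (4.66% of all genes) and Junb and Egr1 lower (6.66%) in the cells without P2ry12. Fos differed between runs in both populations, with 11.1, 155 and 580.3 CPM against 0.641, 1.19 and 56.7 CPM, so its groups overlapped over runs although it was higher within each, and its call was lost without the block (3.7).

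Outside the lists, the genes with the largest differences were mostly absent from other cells. Ptprk, a receptor phosphatase, stood at 12.3, 18.3 and 43.3 CPM with no UMI in 19638 other cells, at least 516-fold higher. Fcna, the lectin ficolin A and a member of the macrophage list, stood at 56.7, 165 and 99.6 CPM against 0.0611, 0.123 and 0 CPM. Gpx3, a secreted glutathione peroxidase, stood at 62.8, 192 and 99.6 CPM against 0.153, 0.287 and 0.0839 CPM, and Cyr61, a matrix protein, at 32, 101 and 385 CPM against 0.153, 0.164 and 0.252 CPM. Cd4, a co-receptor of T cells that macrophages can express, stood at 28.3, 45.7 and 60.6 CPM against 0.0916, 0.123 and 0.126 CPM, in cells without UMIs of Cd3e, Cd3d or Cd3g. In the other direction, the 54 cells without P2ry12 had no UMI of Adgrg1, an adhesion receptor of microglia, nor of the neuron navigator Nav3, at least 28.4-fold and 23-fold lower than in other cells. Csmd3, a large membrane protein, likewise had no UMI there, against 282, 186 and 239 CPM in other cells, at least 17.7-fold lower.

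The last comparison set the 54 macrophage-marker cells without P2ry12 against the 99 with it. Of 1690 genes with enough counts, 50 (2.96%) were called, 16 higher (0.947%) and 34 lower (2.01%) in the cells without P2ry12, with a median log2 difference over all genes of -0.03. The counts were 25, 33 and 145 without runs 1, 2 and 3, and 8 without the block, all 8 lower, so none of the 16 higher calls was made without it. The cells with P2ry12 included the 54 with at least 8 UMIs of it, whose depth and sex-linked transcripts are given above.

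Microglial genes made up much of what was lower. Of 18 homeostatic microglia genes tested, 12 were called lower (2.01% of all genes) and none higher, with a median of -1.74. The split was made on P2ry12, a gene of the same list, so this count is a description. Median depth was 3998 UMIs in the cells without P2ry12 and 7203 in those with it. Tmem119 stood at 90.3, 80.8 and 23.8 CPM without P2ry12 against 1288, 775 and 265 CPM with it (-3.62 ± 0.34, adjusted p = 0.000123), and the runs did not overlap. Sparc had 2 UMIs against 1837, a ratio of 0.00459 (95% counting interval 0.000556 to 0.0166), and Slc2a5 none against 193, at least 15.2-fold lower. Selplg, a selectin ligand, stood at 161, 80.8 and 179 CPM against 2334, 1356 and 646 CPM. Serpine2, a protease inhibitor, and Ecscr, an endothelial-type adhesion regulator, had 1 UMI each in the cells without P2ry12 against 208 and 280 in those with it.

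The macrophage genes outside the rule showed fewer differences. Of 16 tested, Ifitm3 and Ifitm2, interferon-induced membrane proteins, were called higher (0.947% of all genes) and none lower (2.01%), with a median of 0.49. Ifitm3 stood at 1786, 1347 and 1060.3 CPM without P2ry12 against 294, 692 and 510.3 CPM with it (1.64 ± 0.31, adjusted p = 0.0153), without run 1 the difference was 0.95, and the call was lost in thinned cells (0.8). Ms4a7 (0.33 ± 0.27, adjusted p = 0.543), Stab1 (-0.02, adjusted p = 0.97), Dab2, an endocytic adaptor (0.08, adjusted p = 0.897), and Apoe (0.69 ± 0.22, adjusted p = 0.142) did not pass the test.

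Of 8 MHC class II genes tested, 4 were called higher in the cells without P2ry12 (0.947% of all genes) and none lower (2.01%). Cd74 stood at 5821, 9642 and 6862 CPM against 2531, 5481 and 2572 CPM (1.16 ± 0.18, adjusted p = 0.00487), and H2-Aa at 2248, 2936 and 2812 CPM against 954, 1979 and 748 CPM (1.26 ± 0.24, adjusted p = 0.0153). These are levels per UMI of the population, and the share of cells with at least 3 class II UMIs was 42.6% against 40.4%. None of the 15 scavenger receptors, 11 iron and heme genes or 8 interferon genes tested was called, and Isg15, a ubiquitin-like interferon product, had an adjusted p of 0.0707 (1.72).

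Axl stood at 241, 135 and 131 CPM without P2ry12 against 35.1, 83 and 34 CPM with it (2.14 ± 0.48, adjusted p = 0.0309), and Klf2, a factor of quiescent myeloid and endothelial cells, at 612, 215 and 226 CPM against 89.9, 179.9 and 68 CPM (1.96 ± 0.42, adjusted p = 0.0286). Run 1 decided both: without it the differences were 1.31 and 1.01 and the calls were lost, as were those of Fxyd5, an ion pump regulator, Cd52, a leukocyte surface peptide, and Ifitm2 (1.12, 0.89 and 0.86). DESeq2's Wald test did not call Axl, Klf2, Fxyd5 or Cd52 either. Lgals1 stood at 401, 673 and 536 CPM against 132, 194 and 272 CPM (1.43 ± 0.27, adjusted p = 0.0145), a call lost without run 2 (1.34). Ttr, transthyretin of the choroid plexus, had the largest positive difference, and 98.8% of its UMIs in the cells without P2ry12 came from 1 cell of run 1.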

How the data were processed

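Per the labels' protocols, hippocampi were dissected after perfusion with PBS, magnetic columns took out the myelin, and viable reporter-positive cells were sorted into 10x Genomics libraries. The deposited files hold raw counts of UMIs for 31053 genes and each cell barcode, made by the authors with counting software of version 3.0.2 for run 1 and 3.1.0 for runs 2 and 3, per the file headers. The submitters' processing notes name Cell Ranger, Seurat 4.0 and the build mm10. No doublet caller was run here, and cells with both Xist and UMIs of 4 Y-linked genes were counted in its place.

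The kept cells held 33547705, 24534691 and 24073809 UMIs in runs 1, 2 and 3, with medians of 4425, 3438 and 3696 per cell. Counts were summed per run and population, with at least 5 cells in each, and tested with edgeR 4.0.16 in R 4.3.3 (quasi-likelihood test, TMM, filterByExpr, Benjamini-Hochberg over all genes tested, threshold 0.05). The run was a block, because both sums of a run come from 1 library. Deviations of the paired sums correlated at 0.177 to 0.226 for macrophage-marker against other cells, 0.101 to 0.137 for those without P2ry12 against other cells, and 0.173 to 0.277 within macrophage-marker cells, across genes, which are not independent. The 6 rule genes, and P2ry12 where it divided the cells, stayed in library sizes and out of the tests. CPM and log2 ratios per run (pseudocount 1 CPM) were computed from the counts. Of the gene IDs, 99.62% were found in GENCODE M21, on GRCm38.

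The members and the 16 gene lists were chosen with earlier results of these data known. Named genes are up to 6 called genes per list with at least 5 CPM, list genes of known defining role that were not called, and, per direction, the 10 largest log2 differences of at least 1 among called genes with at least 20 CPM and the same direction in 3 runs, without ribosomal, mitochondrial, hemoglobin, unnamed and sex-linked genes. Other list genes shown with values, such as Siglec1, Stab1, Cx3cr1, Cd36, Lrp1, Bst2, Maf, Ccl4 and Isg15, were added after their values were seen.

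The test was tried on simulated counts with 200 genes changed. These counts had 1 dispersion for all genes, a mean profile shared by both populations and no run effect. Their few false calls therefore do not state the rate in the data, where runs differed and some genes rested on single cells. For macrophage-marker against other cells (11906 genes), 27% of 2-fold and 68% of 4-fold changes were recovered with 4 false calls. Without P2ry12 (11670 genes) the shares were 6% and 38%, with 1 false call, and within macrophage-marker cells (1895 genes) 46% and 83%, with 1. Alternatives were DESeq2 1.42.0 (size factors, and its Wald test), no filter on low counts, no block, each run left out, stricter cells (2000 UMIs, 5% mitochondrial), at least 2 or 4 of the 6 genes, no cells with both sex-linked transcripts, thinning to 2000 UMIs, and other cells with none of the 6 genes. A few genes of the lists were counted in them and are not reported here by name.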

Additional observations from a re-analysis of the deposited data

How the results depend on the processing

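For macrophage-marker against other cells, 1208 genes were called, 59.9% of them higher. DESeq2's Wald test called 732 (76.2% higher), the fit with no replicate block 661 (74.9%) and thinned cells 731 (49.1%). Cells with at most 3 P2ry12 UMIs gave 1832 (47.7%), and leaving out a run gave 474 to 1198. For the cells without P2ry12 against other cells, 1324 were called (41.2% higher), against 763 by the Wald test (64.6%), 643 in thinned cells and 610 to 737 without a run. Without against with P2ry12, 50 were called, against 29 by the Wald test, 107 with no filter on low counts, 8 with no replicate block, 85 with stricter cells, 94 without cells of both sex-linked transcripts, 33 in thinned cells, and 25 to 145 without a run. The cause of these moves was not tested. The mean share of 0.769% lay between 0.576% in thinned cells and 0.953% without run 2, within 1 SD over runs, and at 0.493% with at most 3 P2ry12 UMIs.

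Of 1188 alternative values of 93 named genes against other cells, 6 reversed and 63 lost the call. Cxcl10 reversed with the Wald test (-1.95), without run 1 (-10.38, a fit to 0 UMIs, against 4.68 without run 2), with at least 4 of the 6 genes (-2.92) and in thinned cells (-8.45), and Csf1 without run 3 (-1.21, against 2.72 without run 1) and with stricter cells (-0.82). In the cells without P2ry12, Egr1 reversed without run 3 (0.88, against -14.14 without run 1, a fit to 0 UMIs in the cells without P2ry12), 1 of 1103 values, and 79 lost the call. Within macrophage-marker cells 48 of 276 lost it and none reversed. The median of the MHC class II list turned with at least 4 of the 6 genes and in thinned cells (-0.04 and -0.08 for all macrophage-marker cells, -0.17 and -0.23 without P2ry12). The complement median of the cells without P2ry12 was 0.08 without run 2 and -0.25 without run 3. Within macrophage-marker cells the chemokine median was -0.13 with no filter and -0.17 to 0.43 without a run, and the apoptotic uptake median was -1.4 to 0.05 without a run. Itgax, H2-DMb2 and H2-Ob had no UMI in the cells without P2ry12, and medians over them depend on the fit's prior count. The cells without P2ry12 held 99642, 37129 and 83940 UMIs in runs 1, 2 and 3, so that 1 UMI was 26.9 CPM in run 2.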
